A study of Mus musculus with 18 samples.

Results

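The late response of one TFEB mutant clone to its B cell receptor was examined: clone A-59 after 18 h of anti-IgM, in 2 libraries, against the same clone left untreated, in 2 libraries. These 4 libraries, of 18 in the series, were taken by their labels, and every gene that passed a filter on low counts was tested. The cells are WEHI-231, a mouse line with the features of an immature B lymphoma cell, which was grown as parental cells and as the Cas9-edited clones A-59 and B-20, both mutant in Tfeb. Treated cells received 10 µg/ml of anti-IgM F(ab')2 fragments, which crosslink the surface receptor, for 6 or 18 h, and each of the 9 groups held 2 libraries. A-59 is a single clone, so what it shares with no other line cannot be told apart from features of the clone itself that arose in cloning. Each pair of libraries comes from 2 separate experiments with that clone. P-values rest on the spread between such repeats, estimated together over all 9 groups, and not on a spread between clones.

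Crosslinking of the B cell receptor starts kinase cascades, calcium flux and changes in gene expression. In immature B cells without help from T cells the signal leads to growth arrest and cell death, and the WEHI-231 line is a standard model of this outcome. TFEB is a basic helix-loop-helix factor of the MiT/TFE family, known for its control of lysosome and autophagy genes, that moves between cytosol and nucleus with nutrient and calcium signals.

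Library depth in the 4 libraries compared was between 16765274 and 29655262 assigned reads, with 1.52% to 1.97% of them on mitochondrial genes. B cell markers were present as the label requires: 10 of 10 exceeded 1 CPM (counts scaled to library size by TMM), with summed levels of 9970 to 9980 CPM untreated and 14200 to 15100 CPM at 18 h. NK cell markers were at 0 in all 4 libraries (7 of 7). Myeloid markers summed to 8.6 and 10.1 CPM untreated and to 28.9 and 28.4 CPM at 18 h, almost all of it Itgam, while 7 of 11 stood at 3 counts or fewer in each library, and their part in the results was not tested. T cell markers summed to 119 and 128 CPM untreated and 172 to 173 CPM at 18 h, and 8 of 11 were at 3 counts or fewer. Tfeb itself (ENSMUSG00000023990, chr17:47737037-47792416, GRCm38) stood at 25.9 and 25.5 CPM in untreated A-59 cells and at 79.2 and 82.8 CPM in untreated parental cells. It stood at 35.4 and 40.5 CPM after 18 h in A-59 (log2 fold change 0.56 ± 0.11 SE, adjusted p = 0.000563), short of the fold threshold. A gene count does not show whether the edited transcript still encodes protein. Tfe3, the relative of TFEB with overlapping targets, stood at 60.4 and 54.8 CPM untreated and 47.7 and 47.7 CPM at 18 h, and the difference did not pass the test (log2 fold change -0.27).

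After 18 h, 1342 of 15318 tested genes were called in A-59, or 8.76%: 639 were higher (4.17%) and 703 lower (4.59%). A gene was called when its adjusted p in edgeR's quasi-likelihood test was under 0.01 and its log2 fold change was over 1 in size. The genes called lower included 23 of 30 of the ATF4 amino acid response, 33 of 45 of ribosome biogenesis and 9 of 45 of DNA replication. Those called higher included 9 of 19 of MHC class II and 6 of 16 of the B cell receptor and its coreceptors. The median over all tested genes was 0.02 on the log2 scale. For all 1342 called genes the library values did not overlap between the groups. The call all but requires this, so it adds no support, and the share over all tested genes was not counted. The median absolute change of the called genes was 1.32 on the log2 scale. Without the first 18 h library the count of higher genes was 410, and without the second it was 591.

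**Figure D1:**
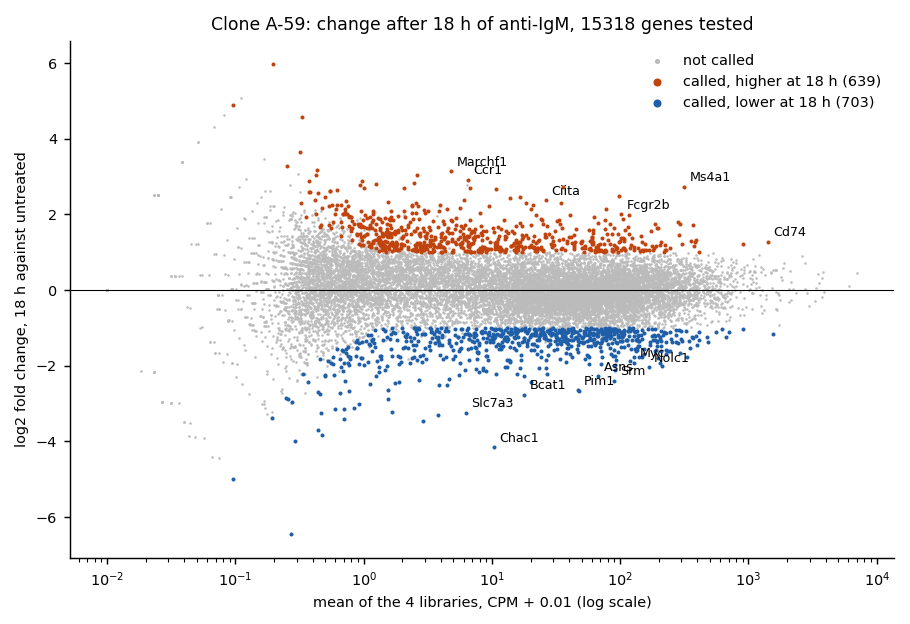
Change after 18 h of anti-IgM in clone A-59 (log2 fold change, y axis) against the mean level of the 4 libraries (CPM + 0.01, log x axis), 1 point a gene. The 639 genes called higher and the 703 called lower lie beyond a log2 change of 1, and Chac1, at -4.15, stands lowest of the labelled genes.

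Most genes of the amino acid response under ATF4 were called lower. ATF4 is a transcription factor made when amino acids are short or proteins misfold, and it drives genes that synthesise, import and charge amino acids onto tRNA. Of 30 tested members 23 were called lower and 0 higher, against 4.59% of all genes lower, and the median was -1.35 on the log2 scale, also with Slc7a11 set at its bound. Because the promoters of 5 called members held a CARE site, the ATF4 binding sequence, 120 bases of each are shown, from RefSeq for GRCm38.p6. The capitals mark the match to TGATGNAA on either strand.

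Asns (chr6:7693210-7693329, - strand): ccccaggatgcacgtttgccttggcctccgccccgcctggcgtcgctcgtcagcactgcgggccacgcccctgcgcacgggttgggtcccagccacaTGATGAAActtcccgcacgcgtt
Chac1 (chr2:119350993-119351112, + strand): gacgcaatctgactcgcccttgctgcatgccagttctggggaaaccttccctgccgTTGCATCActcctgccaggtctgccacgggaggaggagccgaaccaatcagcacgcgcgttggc
Slc7a11 (chr3:50443614-50443733, - strand): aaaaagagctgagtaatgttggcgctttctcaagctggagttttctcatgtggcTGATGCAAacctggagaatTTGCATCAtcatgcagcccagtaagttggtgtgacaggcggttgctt
Nupr1 (chr7:126625517-126625636, - strand): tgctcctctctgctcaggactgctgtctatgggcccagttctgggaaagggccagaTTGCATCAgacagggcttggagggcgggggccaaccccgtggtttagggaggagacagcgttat
Pycr1 (chr11:120643788-120643907, - strand): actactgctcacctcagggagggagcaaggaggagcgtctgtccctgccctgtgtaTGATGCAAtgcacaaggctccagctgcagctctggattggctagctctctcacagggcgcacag

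Of the 22 tested members with a promoter in that table, 5 held the CARE sequence within 250 bases before the start (22.7%), against 3.91% of all 27025 genes with a promoter and 2.41% of the tested genes. All 5 were called lower, but so were 16 of the 22 in all. The match is a description of letters, not of binding.

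Chac1, which breaks down glutathione (ENSMUSG00000027313, chr2:119351242-119354326), stood at 20.9 and 18.1 CPM in untreated cells, at 28 and 18.1 CPM after 6 h and at only 1.1 and 1.09 CPM after 18 h. Its level was therefore similar in the early libraries and 17.8-fold lower at 18 h (log2 fold change -4.15 ± 0.35 SE, adjusted p = 1.66e-07). Asns, the asparagine synthetase gene (ENSMUSG00000029752, chr6:7675165-7693209), had 111 and 113 CPM when untreated, 111 and 111 CPM after 6 h, then 21.7 and 24.4 CPM after 18 h. The groups lay far apart, and the log2 fold change was -2.28 ± 0.10 SE (adjusted p = 1.01e-10). Cth, an enzyme of cysteine synthesis, fell from 42.2 and 46.9 CPM to 8.7 and 10.5 CPM (log2 fold change -2.22). Nupr1, a stress-induced chromatin protein gene, fell from 1.69 and 1.55 CPM to 0.105 and 0.302 CPM. Slc7a11, the cystine importer, was at 0.474 and 0.57 CPM untreated and at 0 counts in both 18 h libraries, at least 3.09-fold lower when each 18 h library is set to 3 counts, and it was not called when either 18 h library was left out. Atf4 fell from 309 and 289 CPM to 115 and 121 CPM (log2 fold change -1.35 ± 0.08 SE). Ddit3, another gene of this response, was not called, at 16.2 and 17.4 CPM untreated and 14.5 and 17.5 CPM at 18 h.

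Slc7a3 and Bcat1, which are not in the ATF4 list, were among the 12 most lowered genes with a mean of at least 5 CPM. Slc7a3, a transporter of cationic amino acids, fell from 11.2 and 11.3 CPM to 0.891 and 1.51 CPM (log2 fold change -3.24). Bcat1, which begins the breakdown of branched-chain amino acids, fell from 33.7 and 28.1 CPM to 3.93 and 5.19 CPM (log2 fold change -2.77).

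**Figure D2:**
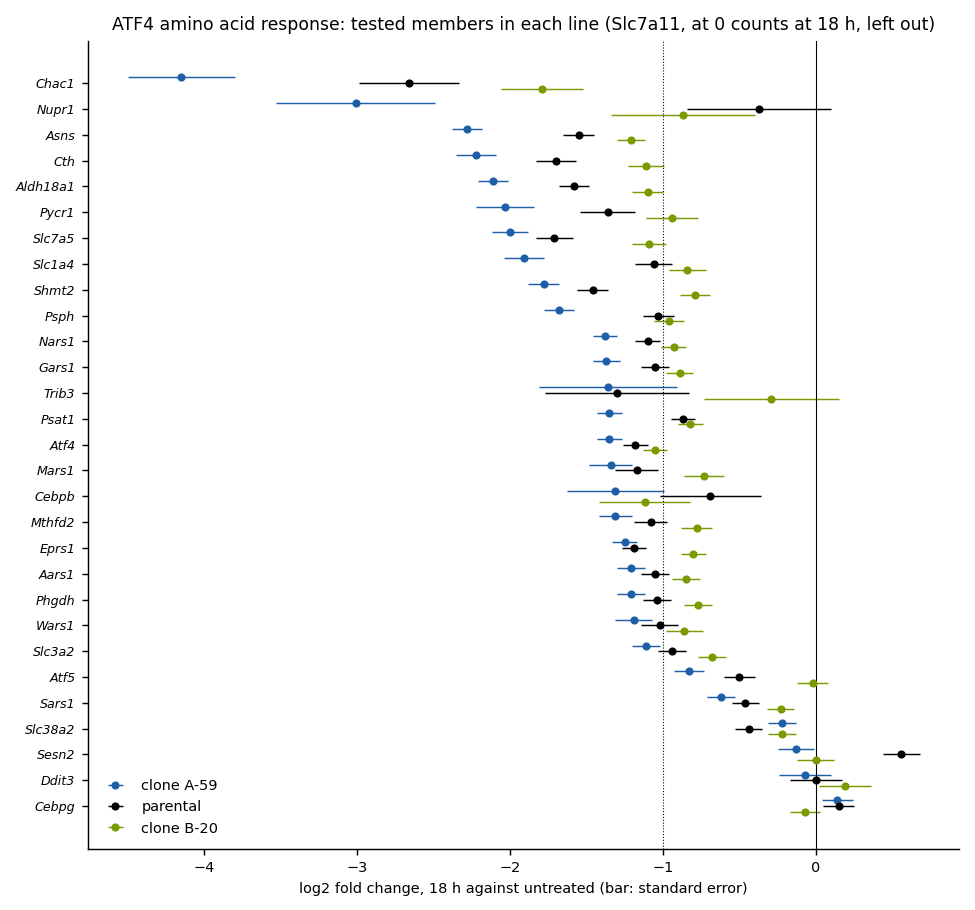
Log2 fold change at 18 h against untreated (x axis, bars standard error) for the tested ATF4 members in clone A-59, parental cells and clone B-20, without Slc7a11, whose 18 h libraries hold 0 counts. The A-59 points lie furthest left for most members, among them Asns at -2.28 against -1.55 in parental cells and -1.21 in B-20.

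Ribosome biogenesis genes encode the nucleolar proteins that transcribe, cut and fold ribosomal RNA, and many are known targets of Myc. Of 45 tested members 33 were called lower and 0 higher, against 4.59% of all genes lower, with a median of -1.33. Nolc1, a nucleolar scaffold, stood at 246 and 291 CPM before treatment, 158 and 171 CPM after 6 h, then 57.0 and 73.4 CPM after 18 h. It had thus fallen in part by 6 h and was lowest at 18 h (log2 fold change -2.04 ± 0.19 SE, adjusted p = 7.83e-07). Gnl3 and Nop2, both nucleolar, had log2 fold changes of -1.94 and -1.84. Srm, which makes spermidine and is not in this list, fell from 159 and 143 CPM to 26.0 and 31.9 CPM (log2 fold change -2.39). Polr1b, a subunit of RNA polymerase I, was the 1 member with a positive value, 0.38, and was not called. Of the 40 ribosomal protein genes tested 3 (7.5%) were called lower, against 4.59% of all genes, and the median of the 40 was -0.12.

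Myc (ENSMUSG00000022346, chr15:61985341-61990361), the growth regulator, stood at 229 and 178 CPM untreated and at 59.8 and 43.7 CPM at 6 h. At 18 h it was at 68.7 and 38.9 CPM, near its 6 h level (log2 fold change -1.92 ± 0.33 SE at 18 h against untreated, adjusted p = 0.000809, and 0.05 at 18 h against 6 h). A fit on the 4 compared libraries alone did not call it (log2 fold change -1.93). Mxd4, which competes with Myc for its partner Max, rose from 44.3 and 51.1 CPM to 188 and 189 CPM (log2 fold change 1.98 ± 0.17 SE). Pim1, a kinase gene of cytokine and NF-kB signalling, fell from 90.5 and 72.3 CPM to 14.6 and 11.4 CPM (log2 fold change -2.64).

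**Figure D3:**
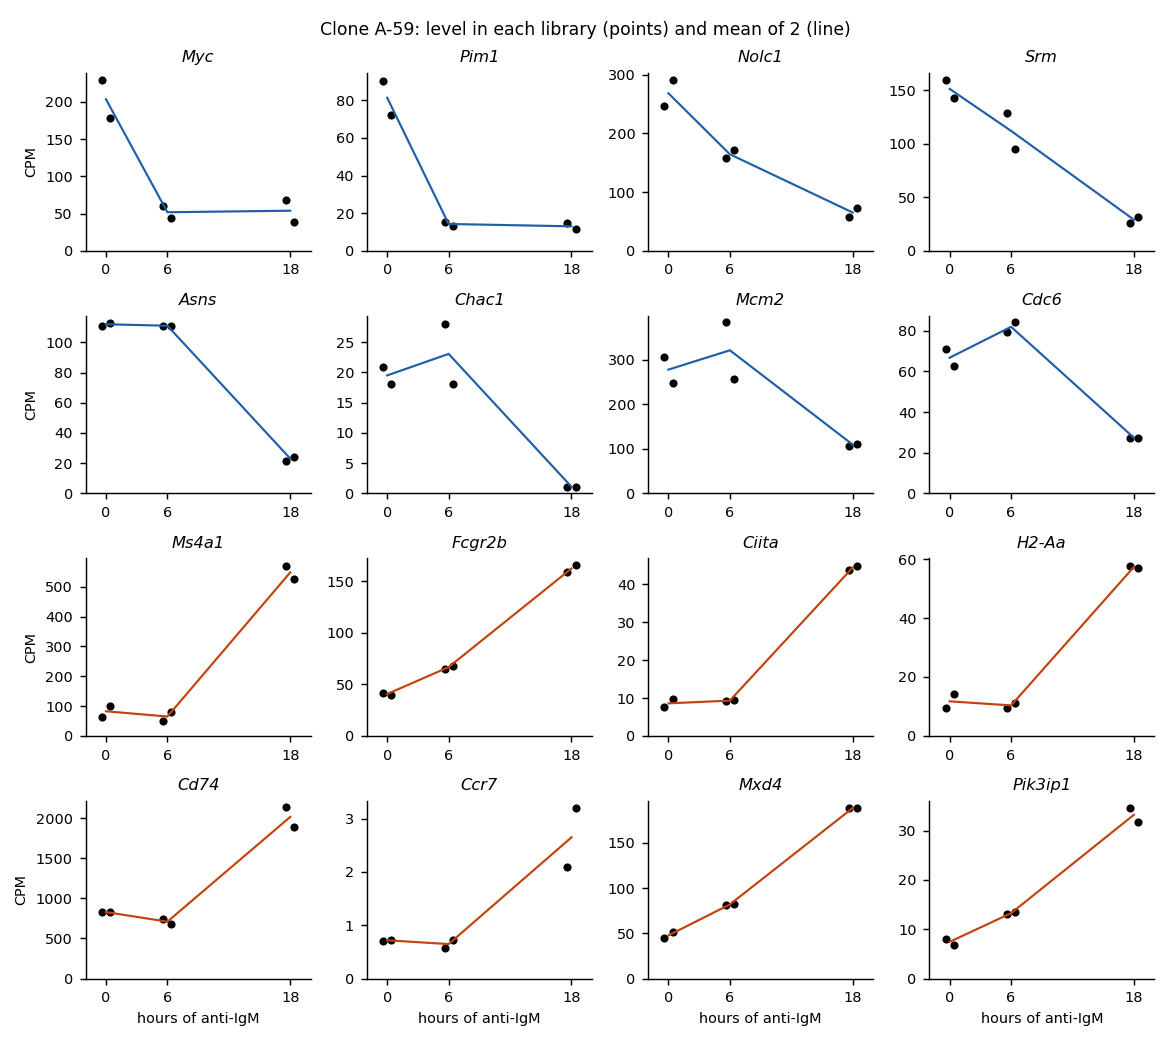
Levels of 16 genes in clone A-59 (CPM, y axis from 0) against hours of anti-IgM, points for the 2 libraries and lines for their mean. Myc and Pim1 are low by 6 h, while Asns, Chac1, Mcm2, Ms4a1, Ciita and Cd74 change between 6 and 18 h.

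In the DNA replication list 9 of 45 tested members were called lower and 0 higher, against 4.59% of all genes lower. All 45 values were negative, with a median of -0.80. Mcm2, a subunit of the replicative helicase, fell from 307 and 249 CPM to 107 and 112 CPM (log2 fold change -1.34 ± 0.15 SE), and Pold2, of DNA polymerase delta, had a log2 fold change of -1.63. Of 36 members with a promoter, 10 held an E2F sequence (27.8%), searched as TTTGGCGC, TTTCCCGC or TTTCGCGC on both strands, against 1.78% of all promoters and 3.37% of those of tested genes. The windows of 3 called members are shown, with the match in capitals. For Cdc6 and Orc1, as for Slc7a11, the start used by the promoter table lies inside the full span of the gene, so the window does too.

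Cdc6 (chr11:98907957-98908076, + strand): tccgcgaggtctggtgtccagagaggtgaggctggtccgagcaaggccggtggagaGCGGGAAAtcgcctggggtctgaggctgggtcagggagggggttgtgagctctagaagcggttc
Mcm5 (chr8:75109304-75109423, + strand): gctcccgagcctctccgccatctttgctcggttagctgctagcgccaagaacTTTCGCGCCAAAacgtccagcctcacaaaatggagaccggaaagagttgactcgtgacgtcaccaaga
Orc1 (chr4:108579334-108579453, + strand): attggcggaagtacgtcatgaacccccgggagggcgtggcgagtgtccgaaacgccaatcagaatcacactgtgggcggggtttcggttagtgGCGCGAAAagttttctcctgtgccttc

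Cdc6, which loads the helicase, fell from 70.8 and 62.7 CPM to 27.4 and 27.3 CPM. Mcm5, also of the helicase, fell from 430 and 383 CPM to 182 and 205 CPM (log2 fold change -1.07). Orc1, which marks origins, fell from 36.7 and 38.2 CPM to 17 and 13.4 CPM. Of 52 mitosis genes 1, Mybl2, was called lower (log2 fold change -1.36), or 1.92%, under the 4.59% of all genes, and the median was -0.40. Yet 48 of the 52 values were negative. At an adjusted p of 0.01 with no fold threshold 30 passed as lower and 1 as higher, against 2622 and 2254 of 15318 tested genes. Of 26 genes in the G1 list 22 were not called and 9 values were positive. Ccng2 rose (log2 fold change 1.30), and Ccnd1, Cdk6 and Cdc25a fell (-1.26, -1.22 and -1.02). Ccnd1 was not called without either untreated library or without the second 18 h library, and without the first untreated library 2 genes of the list were called higher.

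Other motifs were searched in the same 250 bases and are given with their share of all promoters and of those of tested genes. The CHR sequence TTTGAA stood in 16 of 43 mitosis promoters (37.2%, against 18.3% and 13%), and CCAAT in 32 of 43 (74.4%, against 37.5% and 40.1%). The E box CACGTG stood in 2 of 39 ribosome biogenesis promoters (5.13%), against 6.86% and 9.74%. The sequence TGACGTCA, which is both the CRE and the X2 box of MHC class II promoters, stood in 1 of 13 immediate early and 1 of 14 MHC class II promoters (7.69% and 7.14%), against 1.77% and 3.03%. The sterol regulatory element TCACNCCAC stood in 1 of 19 cholesterol promoters (5.26%), against 1.22% and 1.25%.

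Of 26 cholesterol genes 7 were called lower, against 4.59% of all genes, and 0 higher (median -0.88), with 4 lower when the first 18 h library was left out and 13 when the second was. Lss, which closes the sterol rings, had a log2 fold change of -1.21. Of 11 fatty acid genes 2 (18.2%) were called lower, Fasn and Fads2, of synthesis and desaturation (log2 fold changes -1.21 and -1.84). The median of those 11 was -0.21, and 2 members passed an adjusted p of 0.01 in the higher direction. In the unfolded protein list 3 of 23 genes (13%) were called lower: Sdf2l1, Hspa5 and Herpud1, with log2 fold changes of -1.24, -1.04 and -1.02. That count was 1 without the second untreated library and 6 without the second 18 h library, and Hspa5 was also not called without the first 18 h library (-0.94).

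MHC class II molecules present antigen to helper T cells. Of 19 tested members 9 were called higher and 0 lower, against 4.17% of all genes. The median was 1.21, or 0.79 with H2-Eb2 at its bound. Ciita, the master activator of the class (ENSMUSG00000022504, chr16:10480014-10531064), stood at 7.58 and 9.63 CPM before treatment, 9.24 and 9.42 CPM after 6 h, then 43.9 and 45.0 CPM after 18 h. Its 6 h level lay beside the untreated level and its 18 h level above both, with a log2 fold change of 2.38 ± 0.16 SE (adjusted p = 4.56e-09). The chain gene H2-Aa rose from 9.38 and 14.1 CPM to 57.8 and 56.9 CPM (log2 fold change 2.31), and Cd74, the invariant chain, from 826 and 831 CPM to 2140 and 1890 CPM (1.28). H2-Ob, H2-Ab1, H2-Eb1, H2-DMa, H2-DMb1 and H2-DMb2 rose too, H2-Ab1 without a call when the first untreated library was left out (1.73). H2-Ea, not in the list, rose from 4.94 and 5.23 CPM to 27.8 and 28.5 CPM. Marchf1, a ligase that removes class II from the surface and is also not in the list, rose from 0.643 and 1.4 CPM to 7.96 and 9.17 CPM (log2 fold change 3.14). Of the 16 MHC class I genes tested 0 were called, and 3 passed an adjusted p of 0.01 in each direction.

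Of 16 tested genes of the receptor and its coreceptors 6 were called higher and 0 lower, against 4.17% of all genes higher. Ms4a1, which encodes CD20 (ENSMUSG00000024673, chr19:11249679-11266149), stood at 63.4 and 102 CPM untreated, 48.8 and 81.3 CPM after 6 h, then 569 and 527 CPM after 18 h (log2 fold change 2.73 ± 0.28 SE, adjusted p = 9.11e-06). Fcgr2b, the inhibitory Fc receptor, rose from 41.3 and 40.1 CPM to 159 and 166 CPM (log2 fold change 2.00 ± 0.09 SE), and Siglecg, another inhibitor of the receptor, from 54.0 and 55.5 CPM to 165 and 165 CPM (1.60). Cd79a and Cd79b, the signalling chains, were higher by 0.53 and 0.63, short of the fold threshold. In the signalling list 5 of 38 genes (13.2%, against 4.17% of all genes) were called higher, led by the scaffold Bank1 (1.40). Itpr2, a calcium channel gene that was also called, sat at the fold threshold with a log2 fold change of 1.0, and it lost its call in 7 of 13 alternatives. Lat2, an adaptor, lost its call when any 1 of the 4 libraries was left out. The list had 3 members called without the second untreated library, 2 without the first 18 h library and 2 without the filter on low counts.

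Migration genes moved in both directions. Of 21 chemokine and positioning genes 5 were called higher and 3 lower, against 4.17% and 4.59% of all genes. Ccr1 rose from 1.59 and 1.4 CPM to 14.7 and 8.08 CPM (log2 fold change 2.92). Gpr183, the receptor that guides B cells within follicles, rose from 7.42 and 7.3 CPM to 42.6 and 26.7 CPM (2.24). Ccr7, the receptor for T cell zone chemokines, rose from 0.711 and 0.725 CPM to 2.1 and 3.2 CPM (1.86). Ccl22, S1pr3 and Ackr3 fell, Ackr3 without a call when the first untreated (-0.98) or the second 18 h library (-0.84) was left out. Of 20 integrin and adhesion genes 6 (30%, against 4.17% of all genes) were called higher, led by Itgb7 (log2 fold change 1.84 ± 0.12 SE).

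Of 22 genes of PI3K and FoxO 3 were called higher, against 4.17% of all genes. Among them were Pik3ip1, an inhibitor of PI3K, from 7.99 and 6.89 CPM to 34.6 and 31.8 CPM (log2 fold change 2.15), and Sesn3 (1.64). Of 11 plasma cell genes 3 were called lower, against 4.59% of all genes, Irf4, Sdc1 and Slamf7 (log2 fold changes -1.09, -1.74 and -1.09), of which Irf4 was at -0.97 without the second 18 h library. In that list 4 values were positive, 1 of them past an adjusted p of 0.01. Of the NF-kB list 2 of 21 were called, Nfkbid and Tnfaip3, both lower (-1.60 and -1.16), and Tnfaip3 lost its call without the first untreated (-1.02) or the second 18 h library (-0.91). Of the immediate early list 0 of 16 were called by edgeR's test, 2 were by DESeq2, and 3 were without the second 18 h library. Egr1 stood at 1.66 and 1.4 CPM untreated and at 8.96 and 2.95 CPM at 18 h, where its 2 libraries lay far apart.

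Few lysosome and autophagy genes, the known program of TFEB, were called. Of 51 lysosome genes 2 were called higher, Ctsh and Ctsa (log2 fold changes 1.2 and 1.07), with a median of 0.32, with 43 positive values and 8 negative. At an adjusted p of 0.01 with no fold threshold 23 passed as higher and 3 as lower. The count was 4 without the first untreated library, and 1 without the second untreated or the first 18 h library, where Ctsa was not called. Of 45 autophagy genes 1 was called higher, Calcoco1 (1.58), with a median of 0.34. Both shares, 3.92% and 2.22%, lie under the 4.17% of all genes called higher. With no fold threshold, 20 autophagy genes passed an adjusted p of 0.01 as higher and 1 as lower. Of all 15318 tested genes 2254 passed as higher and 2622 as lower, so both lists hold many rises too small for a call. Among 14 tested pro-apoptotic genes of the Bcl-2 family 1, Bid, was called lower (log2 fold change -1.09) and 0 were called higher. That share was 7.14%, against 4.59% of all genes called lower, and the median was 0.16. The 6 anti-apoptotic genes of that family had 0 calls (median -0.19), as did the 18 caspase and necroptosis genes (median 0.07). Bmf, a BH3-only gene, stood at 18.0 and 18.3 CPM untreated and 40.0 and 31.4 CPM at 18 h. Its log2 fold change was just short of the threshold (0.98), and was 1.12 without the second 18 h library. Interferon-stimulated genes were called higher for 4 of 35 (11.4%, against 4.17% of all genes), Ifi27l2a, Gbp2, Rigi and Oas2. The count was 2 without the first 18 h library and 10 without the second. Ifi27l2a lost its call when any 1 of the 4 libraries was left out, and Oas2 without the second untreated (0.96) or the first 18 h library (0.90).

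**Figure D4:**
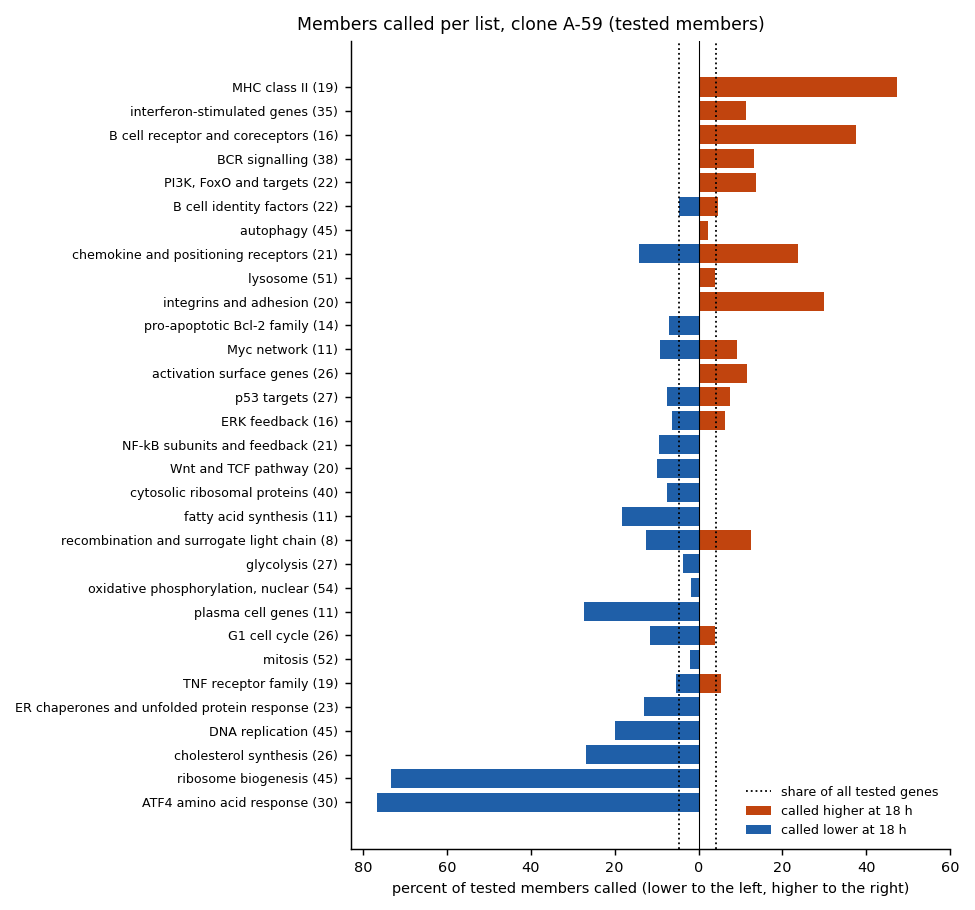
Share of the tested members of each list called higher (right) or lower (left) at 18 h in clone A-59, with the number tested in brackets and dotted lines at the share of all genes (4.17% and 4.59%). The ATF4 and ribosome biogenesis lists extend furthest left and MHC class II furthest right.

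Against 6 h, the 18 h libraries had 1381 called genes (9.02%), 678 higher (4.43%) and 703 lower (4.59%), and share their 18 h libraries with the comparison against untreated cells. DESeq2 called 1220 genes here and a fit on the compared libraries alone 1173. The 2 libraries of A-59 at 6 h correlated at 0.9893 on log2 CPM, against 0.9935 for the untreated pair and 0.991 at 18 h. Chac1 and Slc7a3 fell (log2 fold changes -4.40 and -3.59), and so did Tubb6, a tubulin gene, from 44.3 and 23.7 CPM to 3.41 and 2.23 CPM. Marchf1 and Serpinb1a rose (3.77 and 3.59).

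The same treatment of parental cells called 1579 genes (10.3%) and of clone B-20 called 735 (4.8%). In A-59 and parental cells 943 genes were called in the same direction, which is 70.3% of the A-59 calls and 59.7% of the parental calls. Of the A-59 calls 98.2% had the same sign in parental cells, against 84.0% of all tested genes, and the log2 changes of the lines correlated across genes at r = 0.742, where genes are not independent replicates.

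The difference between the responses was tested directly. Between A-59 and parental cells 5 genes were called (0.0326%), with 1021 at an unadjusted p under 0.05, and between A-59 and B-20 5 genes (0.0326%), with 1989. Of the 398 A-59 calls not called in parental cells the difference was called for 1. The median standard error of the difference over the called genes was 0.26 on the log2 scale. Shank1, a scaffold gene, rose in A-59 from 27.5 and 24.5 CPM to 101 and 96.2 CPM, and stood at 122 and 145 CPM untreated and 173 and 151 CPM at 18 h in parental cells (difference 1.65 ± 0.15 SE, adjusted p = 3.5e-05). Lztfl1 stood at 11.4 and 15.6 CPM and then 18.1 and 20.7 CPM in A-59, and rose in parental cells from 26.9 and 23.8 CPM to 118 and 116 CPM (difference -1.67 ± 0.22 SE). With any 1 of the 8 libraries left out, 1 to 3 genes were called, Shank1 each time, and Lztfl1 when the first untreated A-59 library was left out but in no other such fit. Of the 30 ATF4 members, 29 had a lower log2 change in A-59 than in parental cells, against 8387 of 15318 tested genes. So did 52 of 52 mitosis, 44 of 45 DNA replication and 25 of 26 cholesterol genes, while 26 of 27 glycolysis genes had a higher one. The difference was called for 0 of the ATF4 members, and 15 had an unadjusted p under 0.05. Against B-20 it was called for 2, Asns and Aldh18a1. The 5 calls against B-20 became 1 without the first 18 h A-59 library and 10 without the second 18 h B-20 library, and Asns was not called without that A-59 library or the second untreated B-20 library. Aldh18a1 lost its call in 5 of the 8 fits that left out 1 library.

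**Figure D5:**
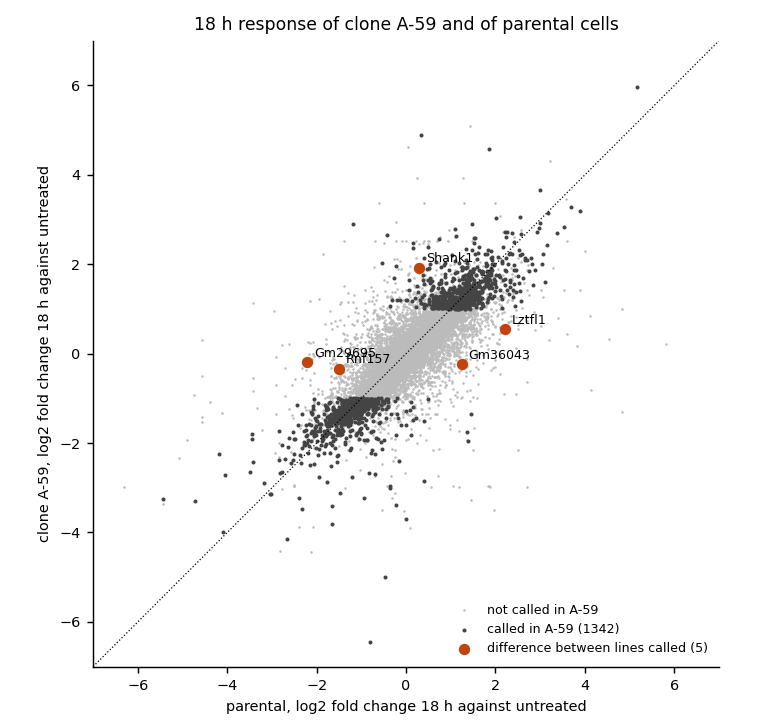
Log2 fold change at 18 h in clone A-59 (y axis) against parental cells (x axis), 1 point a gene, with the diagonal dotted. The 5 genes whose difference was called lie off the diagonal, among them Shank1 above it and Lztfl1 below.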

How the data were processed

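RNA from 18 cultures was sequenced as non-stranded mRNA libraries with single reads of 50 bases. Per the labels and methods, alignment by the authors used STAR 2.5 and the GRCm38 build, featureCounts 1.5.0-p1 gave reads per gene, and the deposited values are these raw counts. Overlapping and antisense genes cannot be told apart in such counts. Symbols came from GENCODE vM39 by identifier (93.2% of 55487 genes), and coordinates and promoters from RefSeq GRCm38.p6.

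Counts were fitted with edgeR 4.0.16 in R 4.3.3 (filterByExpr, TMM, robust quasi-likelihood, all 18 libraries with 9 group means), with Benjamini-Hochberg adjustment over the 15318 genes tested. The call threshold was an adjusted p under 0.01 and a log2 fold change over 1. A gene at 3 counts or fewer in each library of a group is given as a bound. DESeq2 1.42.0 was an alternative. On simulated counts of 14804 genes, edgeR recovered 172 of 200 genes changed by 2 on the log2 scale in the A-59 18 h comparison, with 0 false calls, and 152 in the difference from parental cells, with 2 false calls. The simulated spread was taken from the same fit, and all other genes had the same mean in every group. The planted change exceeded the median of 1.32 among called genes. These counts therefore do not give error rates for the real data.

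Members and lists were chosen with earlier results of these data known. The text names core list members, up to 5 called members a direction in each list, the 12 most changed genes a direction with a mean of at least 5 CPM in the higher group, the genes whose response differed between lines and up to 5 a direction for 18 h against 6 h, and further list members chosen after their values were seen. The CARE motif was added after the ATF4 list was seen to fall. A first set of 10 promoters was chosen by hand for CARE, the E box or E2F, and 8 had an entry. Of these 4 held their motif: Chac1, Asns and Slc7a11 for CARE and Cdc6 for E2F. No promoter chosen for the E box held it, nor did Mcm2 hold E2F. The 8 printed were then chosen because they held CARE or E2F and their genes were called. 3 list symbols were renamed to match. Some genes that the naming rule covers are not reported here and are left out of the counts of named genes.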

Additional observations from a re-analysis of the deposited data

Results flagged for a closer look

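The 18 h response differed between lines, by the test of the difference in edgeR, for 10 genes. Against parental cells the A-59 log2 change was higher (more positive) by 1.65 for Shank1, by 1.16 for Rnf157 and by 2.02 for the predicted gene Gm29695. It was lower for Lztfl1 (-1.67) and for the predicted gene Gm36043 (-1.49). In 4 of these 5, all but Shank1, the parental response was called and that of A-59 was not. Against B-20 the A-59 change was higher by 1.35 for Apoe and lower for Asns (-1.07), Ikbke (-1.76), Aldh18a1 (-1.02) and Rps13-ps2 (-2.4), a pseudogene whose reads may come from its parent gene. Each of these groups holds 2 libraries of 1 clone or line.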

How the results depend on the processing

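The A-59 count of 1342 stayed within 1.5 times under both other scalings, both filters, DESeq2 (1215), the GC offset and the fit on the compared libraries. It was 6774 (3277 higher, 3497 lower) at an adjusted p under 0.05 with no fold threshold and 308 (121 and 187) when glmTreat tested against a log2 change of 1. Leaving out 1 library at a time gave 1010 to 1386 genes, 410 to 591 higher and 600 to 795 lower. Such fits assume that the lone library of a group varies like the others, and test about as many genes or more. The 5 genes that differed from parental cells became 10 with DESeq2 and 20 with no filter, and 1 to 3 with 1 library left out. The 5 that differed from B-20 became 12 with DESeq2, 51 with no filter, 1 with only the compared libraries, and 1 to 10 with 1 library left out. The cause was not tested.

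With the replicate number as a block, 1402 genes were called in A-59 (674 higher, 728 lower), 9 in the difference from parental cells and 12 in that from B-20. Deviations of same-numbered libraries correlated at 0.168 between the untreated and 18 h groups of A-59, at 0.16 to 0.308 within A-59, 0.112 to 0.17 within B-20 and 0.069 to 0.126 within parental cells, and at -0.026 to 0.32 over all pairs of groups. The labels do not say what a shared number stands for, so a pairing within each clone is a hint from the data.

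Of 122 named genes called, 97 kept the call under each alternative that tested them and 25 lost it at least once. Named genes that changed sign were all uncalled. Cd69 (0.01) became -0.03 with no filter, -0.09 with the block, -0.14 with the GC offset and -0.01 without the second B-20 6 h library, a fit chosen after seeing the data. Lamp1 (0.01) became -0.04 with no filter and -0.01 without that B-20 library. The others did so when 1 of the 4 libraries was left out, with ranges of -0.94 to 0.53 for Cd69, -0.06 to 0.05 for Lamp1, -0.23 to 0.12 for Bcl2l1, -0.12 to 0.03 for Sqstm1, -0.1 to 0.33 for Jun, -0.64 to 0.1 for Cd86, -0.09 to 0.27 for Smad3, -0.18 to 0.08 for mt-Cytb, -0.23 to 0.04 for Ddit3, -0.08 to 0.71 for Fcgr3, -2.37 to 0.47 for Alas2, -0.31 to 1.19 for Col1a1 and -0.03 to 0.3 for Mitf. For the gene lists, 1434 member counts and medians stayed within the limits and 165 moved. With 2 libraries a group, genes under about 1 CPM are measured with wide error.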
